A study of Mus musculus with 23 samples.

Results

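The genes described here are 48 mouse genes of the Wnt pathway that act at or near the cell surface. They were chosen by name as ligands, receptors, co-factors and inhibitors of the pathway, and each matched 1 gene among the 35523 genes counted. They comprise 16 ligands, 1 enzyme of ligand secretion, 12 receptors and co-receptors, 4 R-spondins, 3 R-spondin receptors, 8 secreted inhibitors and 4 feedback genes.

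RNA was sequenced from mouse pancreatic stellate cells (PSCs), the fibroblast-like cells of the pancreas, and from pancreatic tumour organoids that had been grown together in Matrigel for 3.5 days, in medium labelled reduced or control, and then separated by flow sorting. The PSC fraction gave 8 libraries of Egfr knockout (KO) cells and 4 libraries of wild-type cells, whose titles carry the word Rosa. The organoid fraction gave 7 libraries from co-cultures with KO PSCs and 4 from co-cultures with Rosa PSCs. The KO lines were A3 and B4 of the parent line PSC4, and C5 and D4 of the parent line PSC5, each parent with its own Rosa line. PSC4 lines A3, B4 and Rosa were each grown with the organoid lines T12-LOH, T69A and T6-LOH, whereas the PSC5 lines were grown with T6-LOH organoids. The organoids of the culture of T69A with A3 are not analysed here. The labels give the lines by these codes, and they do not say whether libraries came from separate cultures, so the p-values measure the spread between these libraries, which may be partly technical. Each line has 1 library per organoid line, and libraries of 1 line are not separate KO events.

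Wnt proteins are secreted lipid-modified signals that bind Frizzled receptors together with the co-receptors Lrp5 and Lrp6, which stabilises β-catenin, while other Wnt proteins act without it. R-spondins bind Lgr receptors and protect Frizzled proteins from removal by the ubiquitin ligases Znrf3 and Rnf43. Secreted inhibitors such as the Sfrp proteins, Dkk1 and the deacylase Notum limit the signal. In pancreatic cancer some tumour organoids make their own Wnt ligands and others depend on ligands or R-spondins from outside, and fibroblasts are a known source of both.

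Promoter stretches are given for Wnt4, Axin2 and Wnt11. Transcripts of each were lower in PSC4 cells grown with T12-LOH than with T6-LOH organoids, and those of Wnt4 and Axin2 were also lower in T12-LOH organoids. In the PSC4 cells 17 members were lower, 10 of them in the promoter table, and the 3 shown were not chosen by a rule. The calls of Axin2 and Wnt11 in these cells depended on single libraries, as given below. Each is the 250 bases before the RefSeq transcription start on build GRCm38.p6, on the plus strand, at chr4:137277385-137277634 for Wnt4, chr11:108920099-108920348 for Axin2 and chr7:98834862-98835111 for the first of 2 Wnt11 entries. Capitals mark the only match in these stretches, on either strand, to 3 words that TCF/LEF factors are known to bind, whose letters follow the stretches. The capitals in Wnt11 are the first word read on the other strand.
Wnt4: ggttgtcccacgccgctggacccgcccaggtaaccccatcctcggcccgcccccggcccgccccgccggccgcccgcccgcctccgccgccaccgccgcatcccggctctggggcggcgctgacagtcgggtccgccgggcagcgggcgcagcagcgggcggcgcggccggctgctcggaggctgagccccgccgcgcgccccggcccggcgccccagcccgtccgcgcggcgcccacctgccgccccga
Axin2: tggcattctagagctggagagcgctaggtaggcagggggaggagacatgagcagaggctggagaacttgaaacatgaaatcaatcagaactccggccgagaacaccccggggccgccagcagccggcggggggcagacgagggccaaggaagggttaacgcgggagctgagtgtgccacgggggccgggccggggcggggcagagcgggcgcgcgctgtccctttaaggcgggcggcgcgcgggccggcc
Wnt11: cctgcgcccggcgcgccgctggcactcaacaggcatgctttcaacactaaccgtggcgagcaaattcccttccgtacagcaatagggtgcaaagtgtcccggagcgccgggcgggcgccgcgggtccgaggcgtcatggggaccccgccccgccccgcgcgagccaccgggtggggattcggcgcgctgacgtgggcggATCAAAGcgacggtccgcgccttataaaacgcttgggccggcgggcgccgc
The word CTTTGAT stood on either strand in 3.21% of the 32851 promoter entries, and among the 29 members in the promoter table in 2, Wnt5b and Wnt11. The second word, CTTTGAA, stood in 4.46% of entries and in 1 member, Dkk1. The third word, CTTTGTT, stood in 5.03% of entries and in 2 members, Dkk1 and Fzd7. A match describes the letters in this window and does not show a binding site.

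The libraries held 21823084 to 34828131 estimated reads on genes. The PSC fraction had all 11 fibroblast and stellate markers at a mean of 1 CPM (counts scaled to the normalised library size) or more, and their summed level was 5171 to 16390 CPM, against 1.30 to 21.5 CPM in the organoids. The 10 epithelial markers summed to 33.2 to 139 CPM in the PSC fraction, against 11320 to 16750 CPM in the organoids. Egfr, the targeted gene, averaged 156 ± 93.7 CPM in KO PSCs (SD, n = 8) and 328 ± 65.2 CPM in Rosa PSCs (SD, n = 4). It was below its own Rosa control in 8 of 8 KO libraries, but the D4 library, with 348 CPM, lay within the range of the Rosa libraries, 279.6 to 422 CPM. Counts do not show whether the remaining transcripts code for a working receptor.

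The first comparison sets the PSC fraction against the organoid fraction of 11 cultures, paired by the organoid and PSC lines in their labels. It shows which side carried each ligand, receptor and inhibitor. Of the 48 members, 31 averaged at least 1 TPM (a level corrected for transcript length) in PSCs, against 22 in organoids. Both fractions had 17 of them, PSCs alone 14, organoids alone 5, and neither 12. Of the 40 members with enough reads for the test, 25 were higher in PSCs and 11 were lower (edgeR quasi-likelihood test with Benjamini-Hochberg adjustment). Over all 16227 genes tested 73.9% were called, 36.3% higher and 37.6% lower. The median log2 difference was 2.03 over the members tested, and -0.05 over all genes.

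**Figure D1:**
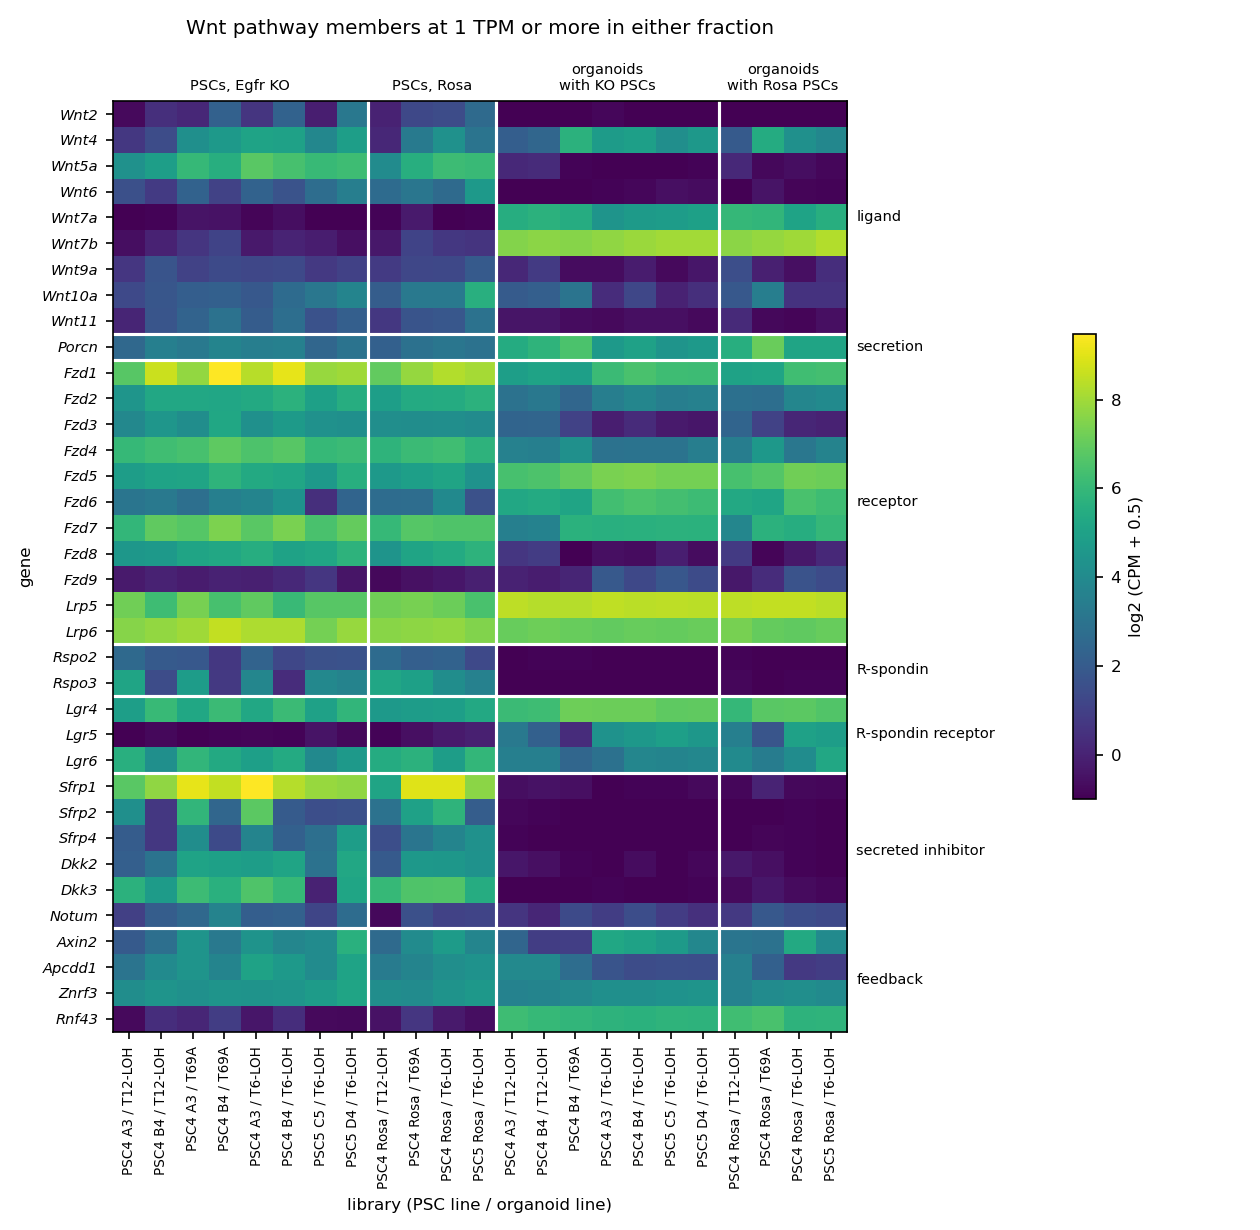
Level of the 36 members that averaged 1 TPM or more in either fraction, as log2 of CPM plus 0.5 (colour), in each of the 23 libraries (columns, grouped as KO and Rosa PSCs and organoids grown with each). Wnt7a, Wnt7b and Rnf43 are brighter in every organoid column than in any PSC column, and Sfrp1, Dkk2 and Fzd8 are brighter in every PSC column than in any organoid column.

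Ligand transcripts differed in kind between the fractions. In PSCs Wnt5a, a ligand mostly known for signalling without β-catenin, had the highest mean level at 25.1 ± 12.5 TPM (SD, n = 12). Wnt10a, Wnt4, Wnt6 and Wnt11 followed with means of 7.70, 6.91, 6.59 and 5.11 TPM, whose SDs of 10.4, 5.19, 6.69 and 3.15 TPM exceeded the gaps between them. Wnt2 averaged 2.13 TPM and Wnt9a 1.02 TPM in PSCs. In organoids Wnt7b, a ligand of epithelia, averaged 112 ± 19.1 TPM and its close relative Wnt7a 20.2 ± 7.23 TPM (SD, n = 11). Wnt4 averaged 7.75 TPM and Wnt10a 2.16 TPM in organoids, and the other 12 ligands were each below 1 TPM. The summed level of the ligand genes ran from 15.1 to 118.7 TPM over the PSC libraries, and it ran from 122 to 184.7 TPM over the organoid libraries, so the fractions did not overlap. Wnt7b made up 66.9% to 85.6% of that sum in the organoid libraries.

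Tested across libraries, Wnt5a had between 16.1 and 112 CPM in PSCs (median 64.9), against 0 to 0.727 CPM in organoids. The fractions were far apart, with a log2 difference of 8.02 ± 0.80 (SE; adjusted p = 9.4e-07). Wnt7b had between 0.158 and 1.66 CPM in PSCs (median 0.516), against 183 to 308.5 CPM in organoids (median 225.7), a log2 difference of -8.57 ± 0.36 (SE; adjusted p = 2.1e-10). Wnt7a had at most 0.343 CPM in PSCs, against 20.9 to 62.5 CPM in organoids. Wnt2 had 0.0950 to 8.79 CPM in PSCs, whereas 1 of 11 organoid libraries held any reads, 2 in all. Wnt6, Wnt11, Wnt9a, Wnt10b and Wnt2b were also higher in PSCs, the last 2 at under 1 TPM. Wnt4 was present on both sides, with 0.631 to 33.5 CPM in PSCs (median 16.0), against 3.46 to 52.2 CPM in organoids (median 18.8). Its log2 difference of -0.81 (adjusted p = 0.018) was no longer called when all 23 libraries were fitted without the culture block (-0.46, adjusted p = 0.45). Wnt10a (1.49, adjusted p = 0.069) and Wnt5b (0.91, adjusted p = 0.12) did not pass the test. Wnt3, Wnt3a, Wnt9b and Wnt16 were not tested for want of reads, and their highest level in any library was 0.0428, 0.0720, 0.0428 and 0.502 CPM.

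**Figure D2:**
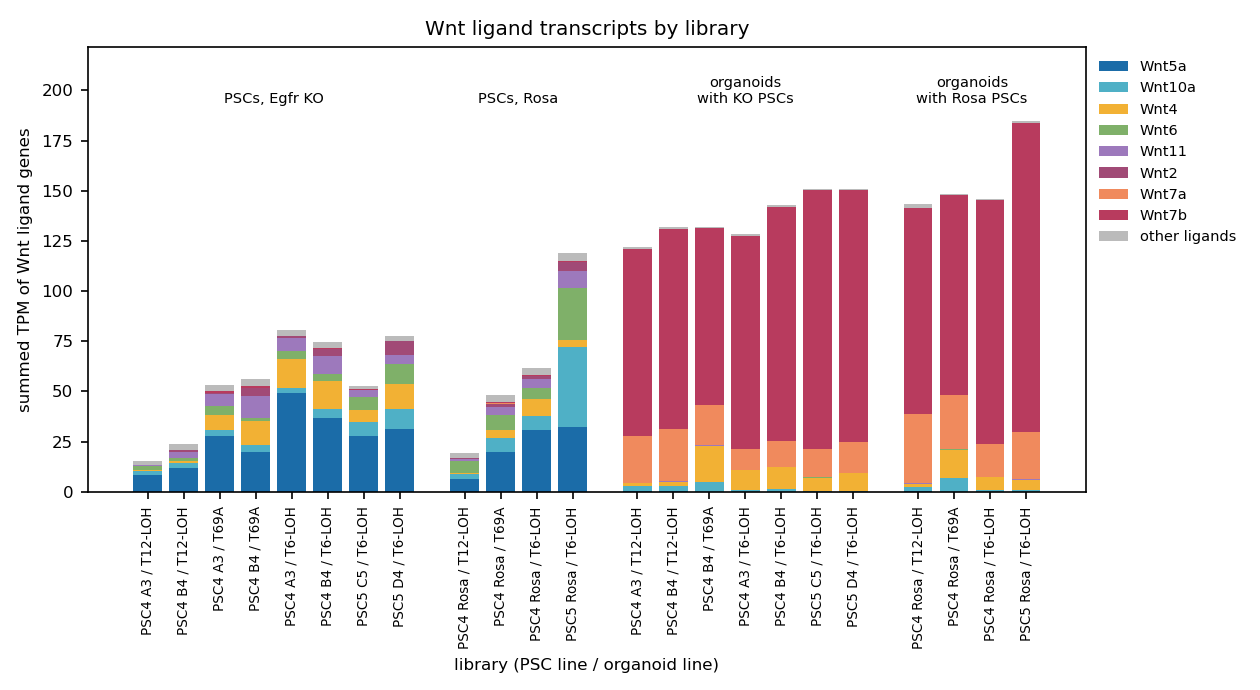
Summed TPM of the 16 Wnt ligand genes in each library (bar height), divided by gene (colours). PSC bars are led by Wnt5a except the PSC5 Rosa library, where Wnt10a leads, and every organoid bar is led by Wnt7b.

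Small amounts of Wnt7b were read in the PSC fraction. With T12-LOH, T69A and T6-LOH organoids, Wnt7b in PSCs was 0.0687% to 0.222%, 0.455% to 0.72% and 0.0712% to 0.486% of its mean organoid level. The epithelial markers in the same libraries stood at 0.107% to 0.318%, 0.561% to 0.729% and 0.0564% to 0.214% of theirs. The markers were highest with T69A organoids, but Wnt7b did not follow them in every library. The PSC5 Rosa library had the lowest marker share, 0.0564%, beside 0.43% of Wnt7b, whereas B4 with T12-LOH had 0.318% of the markers beside 0.222% of Wnt7b. The part of epithelial RNA in the Wnt7b values was not tested. In bulk libraries fewer cells of a type and less RNA per cell cannot be told apart.

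Porcn, the acyltransferase that adds the lipid needed for Wnt secretion, had 4.12 to 12.7 CPM in PSCs, against 20.7 to 137 CPM in organoids, without overlap. Its log2 difference was -2.46 ± 0.27 (SE; adjusted p = 2.0e-06).

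Among the 12 receptors and co-receptors 11 were tested, 7 were higher in PSCs and 4 were lower. In PSCs the Frizzled gene with the highest level was Fzd1, at 141 ± 84.1 TPM (SD, n = 12), against 21.9 ± 9.63 TPM in organoids (SD, n = 11). In organoids Fzd5 (30.7 ± 7.92 TPM), Fzd6 (25.8 ± 10.6 TPM) and Fzd1 led, with gaps smaller than their SDs, and PSCs had 9.35 ± 3.01 TPM of Fzd5 and 4.10 ± 2.42 TPM of Fzd6. Fzd8 had 21.2 to 54.7 CPM in PSCs, against 0 to 1.33 CPM in organoids, and its log2 difference was 6.45 ± 0.59 (SE; adjusted p = 3.7e-07). Fzd5 and Fzd6 were lower in PSCs, without overlap between the fractions, with log2 differences of -1.99 ± 0.15 and -3.02 ± 0.40 (SE; adjusted p = 3.7e-08 and 1.5e-05). Fzd2, Fzd3, Fzd4 and Fzd7 were higher in PSCs by log2 differences of 1.96, 4.09, 2.73 and 1.52, and the low gene Fzd9 was lower in PSCs (-1.74). The co-receptors went in opposite directions. Lrp5 averaged 40.0 ± 10.3 TPM in PSCs and 104 ± 6.05 TPM in organoids, a log2 difference of -1.69 ± 0.11 (SE; adjusted p = 1.5e-08), and Lrp6 averaged 51.6 ± 14.5 TPM in PSCs and 25.2 ± 3.01 TPM in organoids, 0.72 ± 0.12 (SE; adjusted p = 8.1e-05). Fzd10 had no reads in PSCs and at most 0.480 CPM in organoids.

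R-spondin transcripts came from the PSC fraction. Rspo3, which amplifies Wnt signals through Lgr receptors, had 0.744 to 36.0 CPM in PSCs (median 14.0), and 3 of 11 organoid libraries held any Rspo3 reads, 4 in all. Rspo2 had 1.11 to 5.80 CPM in PSCs, and its organoid reads came to 3 over 11 libraries. Both differences passed the test (adjusted p = 8.0e-11 for Rspo3 and 1.3e-08 for Rspo2). Rspo1 and Rspo4 had at most 2 and 9 reads in any library of either fraction. The R-spondin receptors lay on both sides. Lgr5, a Wnt target and a marker of gut stem cells, had at most 0.441 CPM in PSCs, against 0.767 to 31.6 CPM in organoids (median 19.9), a log2 difference of -6.86 ± 0.47 (SE; adjusted p = 2.2e-08). Lgr4 averaged 16.9 ± 7.40 TPM in PSCs and 35.6 ± 8.86 TPM in organoids (-1.41, adjusted p = 3.0e-06), while Lgr6 averaged 14.0 ± 5.02 TPM in PSCs and 6.21 ± 3.84 TPM in organoids (1.39, adjusted p = 0.00022), and in CPM the ranges of both genes overlapped.

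By summed level, secreted inhibitors were almost wholly PSC transcripts. The sum was 55.1 to 483 TPM in PSC libraries, against 0.663 to 2.94 TPM in organoid libraries. Sfrp1, a soluble Frizzled-related protein that binds Wnt ligands, averaged 136 ± 80.3 TPM in PSCs (SD, n = 12) and had at most 0.541 CPM in organoids. Dkk3 (30.7 TPM), Sfrp2 (26.1 TPM), Dkk2 (10.5 TPM) and Sfrp4 (9.47 TPM) followed in PSCs, with SDs of 15.6, 36.0, 6.38 and 8.41 TPM, and neighbours in this order differed by less than the larger of their SDs. Dkk1, an Lrp6 antagonist, averaged 1.07 CPM in PSCs, with a range of 0 to 4.38 CPM and a median of 0.528 CPM. It had no reads in 11 organoid libraries, which allows up to 0.00957 CPM (3 reads over the group). The PSC mean was thus at least 112-fold higher, but this does not hold for each PSC library, since the D4 library had no Dkk1 reads either. The log2 difference at that bound, 6.81, and the fitted one, 7.22, both lie above the median over members. The choice between them therefore cannot move that median, 2.03. Notum, which removes the lipid from Wnt proteins, had 0.0841 to 12.4 CPM in PSCs, against 0.599 to 3.16 CPM in organoids, and did not pass the test (log2 difference 0.67, adjusted p = 0.24). Sfrp5 had no reads in any library.

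The 4 feedback genes did not share 1 pattern. Axin2, a β-catenin target that limits the pathway, had 3.39 to 50.3 CPM in PSCs (median 14.9), against 1.37 to 40.7 CPM in organoids (median 13.9), and the fractions overlapped over nearly the whole range (log2 difference 0.16 ± 0.39, SE; adjusted p = 0.71). Rnf43 had at most 1.36 CPM in PSCs, against 50.7 to 89.2 CPM in organoids, a log2 difference of -7.34 ± 0.41 (SE; adjusted p = 3.0e-09). Its partner Znrf3 was higher in PSCs by 0.38 (adjusted p = 0.00099), with 16.3 to 34.1 CPM in PSCs and 12.0 to 20.8 CPM in organoids. Apcdd1, a membrane inhibitor induced by Wnt signals, was higher in PSCs by 2.09 (adjusted p = 0.0046), with 7.60 to 33.2 CPM in PSCs and 1.172 to 15.0 CPM in organoids.

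The series' main comparison sets Egfr KO PSCs against Rosa PSCs grown with the same organoids. None of the 38 members tested was called with edgeR, where 0.0949% of all 14756 genes were, 0.0271% higher and 0.0678% lower. Egfr, the targeted gene, was not called in this fit either (log2 difference -1.15 ± 0.34, SE; adjusted p = 0.23). A lack of calls here therefore does not show a lack of difference. At an unadjusted p under 0.05 there were 7 of the 38 members, beside 1992 of the 14756 genes. DESeq2 called 5 members (Wnt4, Wnt6, Wnt10a, Fzd4 and Notum), among 589 genes in all. Neither limma voom with PSC line as a random effect nor counts summed per PSC line called any member. The median log2 difference was 0.21 over the members tested and 0.00 over all genes.

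The 5 genes each stood on 1 side of the Rosa control in all 8 KO libraries. So did Fzd5 and Znrf3, above it, and Dkk3, below it, which neither tool called. The 5 were called from these same libraries, so their shared side is not separate support. The 8 KO libraries share 4 Rosa controls, and the share of all genes that stood on 1 side was not counted. Wnt4 had 1.14 to 33.5 CPM in KO PSCs (median 21.5), against 0.631, 7.71, 9.62 and 19.5 CPM in Rosa PSCs. It was above its own Rosa control by 0.54 to 1.83 on the log2 scale of CPM plus 0.5, although the groups overlapped (edgeR log2 difference 1.15 ± 0.25, SE; adjusted p = 0.14). Wnt10a had 2.00 to 12.8 CPM in KO PSCs (median 4.05), against 3.74, 8.93, 8.93 and 47.8 CPM in Rosa PSCs, and was below its control in each (-1.28 ± 0.26; adjusted p = 0.12). Wnt6 had 1.22 to 10.6 CPM in KO PSCs (median 3.56), against 5.61, 5.88, 8.22 and 24.2 CPM in Rosa PSCs, and was also below its control in each (-1.35 ± 0.32; adjusted p = 0.15). The highest Wnt6 and Wnt10a values both belonged to the PSC5 Rosa library. Notum had 1.49 to 12.4 CPM in KO PSCs (median 4.12), against 0.0841, 1.60, 1.69 and 2.43 CPM in Rosa PSCs (1.92 ± 0.58; adjusted p = 0.23). Fzd4 was above its control by 0.23 to 0.74 (0.40 ± 0.10; adjusted p = 0.15). The difference between KO and Rosa cells was not found to differ between PSC5 and PSC4 lines for any of 40 members (edgeR 0 and DESeq2 0, with 0% of 15336 genes called by edgeR). There were 3 members at an unadjusted p under 0.05, beside 734 of all genes. PSC5 has 1 Rosa library.

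The KO lines of PSC4 differed from each other in about as large a share of the members as of all genes. Lines A3 and B4 each have 3 libraries, 1 per organoid line, and they are compared as lines, not as genotypes. Of 40 members tested, 8 were higher in A3 and 11 were lower, which is 47.5% of those tested, beside 45.2% of all genes called, 23.9% higher and 21.3% lower. The calls of 12 of these 19 members were kept whichever of the 6 libraries was left out and in the other fits. Against PSC4 Rosa, 3 members were higher and 2 lower in A3 (6.98% of all genes called, 3.15% higher and 3.83% lower), and 15 were higher and 9 lower in B4 (46.3% of all genes called, 22.1% higher and 24.2% lower). These 2 comparisons share the same Rosa libraries. Their medians over the members were 0.08 for A3 and 0.29 for B4, and the median for A3 against B4 was -0.25, with medians over all genes between -0.01 and 0.01.

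Rspo3 was low in B4. Given in the order T12-LOH, T69A and T6-LOH, it had 34.6, 27.0 and 13.4 CPM in A3, 2.20, 1.15 and 0.744 CPM in B4, and 36.0, 30.7 and 16.9 CPM in PSC4 Rosa. All B4 values lay below all others, with log2 differences of 4.21 ± 0.14 (SE) for A3 against B4 (adjusted p = 3.0e-06) and -4.40 for B4 against Rosa (adjusted p = 2.9e-06). Rspo2 was lower in B4 too, at 3.42, 1.11 and 1.82 CPM, whereas A3 had 5.48, 3.19 and 4.51 CPM, so that the lines overlapped by 1 library (A3 against B4 1.14, adjusted p = 0.0047). Sfrp2 had 18.3, 59.7 and 114.5 CPM in A3, 1.10, 4.94 and 3.57 CPM in B4, and 7.19, 31.7 and 55.6 CPM in PSC4 Rosa. For A3 against B4 its log2 difference was 4.28 (adjusted p = 0.00014), and for B4 against Rosa -3.19 (adjusted p = 0.00035). Sfrp4, Dkk1 and Dkk3, which are also grouped here as secreted inhibitors, were higher in A3 than in B4 by 2.19, 2.4 and 0.71 (adjusted p = 0.0012, 0.0077 and 0.0023).

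B4 cells had more of several receptors. Lgr4 had 28.9, 37.2 and 38.4 CPM in A3, 65.8, 70.8 and 71.3 CPM in B4, and 24.8, 27.1 and 29.0 CPM in PSC4 Rosa, and B4 did not overlap the other lines (A3 against B4 -0.98, adjusted p = 6.7e-05; B4 against Rosa 1.34, adjusted p = 2.2e-05). Fzd1 had 107, 218 and 325 CPM in A3, 399.9, 715 and 548 CPM in B4, and 125, 228 and 313 CPM in PSC4 Rosa (A3 against B4 -1.45, adjusted p = 0.0036). Fzd7 and Fzd3 were lower in A3 than in B4 (log2 differences -0.74 and -0.72, adjusted p = 0.00026 and 0.0063). Lrp5 went the other way, with 147, 159 and 122 CPM in A3, 73.9, 84.6 and 68.6 CPM in B4, and 146, 161 and 139 CPM in PSC4 Rosa (A3 against B4 0.94, adjusted p = 3.6e-05).

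Among ligands, Wnt2 was lower in A3 than in B4, at 0.0950, 0.638 and 1.027 CPM in A3, 0.825, 4.30 and 4.39 CPM in B4, and 0.504, 1.92 and 2.17 CPM in PSC4 Rosa (A3 against B4 -2.46, adjusted p = 0.00026). Wnt6 was lower in B4 than in PSC4 Rosa (-1.88, adjusted p = 0.00089) and Wnt4 was higher (1.15, adjusted p = 0.0020). Notum had 3.77, 12.4 and 4.31 CPM in B4, against 0.0841, 2.43 and 1.60 CPM in PSC4 Rosa (2.45, adjusted p = 0.0071). In A3 the 5 members called against PSC4 Rosa were Wnt10a (-1.20), Wnt2 (-1.48), Lgr4 (0.37), Wnt4 (0.82) and Fzd4 (0.29), and no member was called when the T6-LOH or T69A library of PSC4 Rosa or the T6-LOH library of A3 was left out. For B4 against PSC4 Rosa, leaving out the T69A library of PSC4 Rosa left 15 of the 24 calls.

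**Figure D3:**
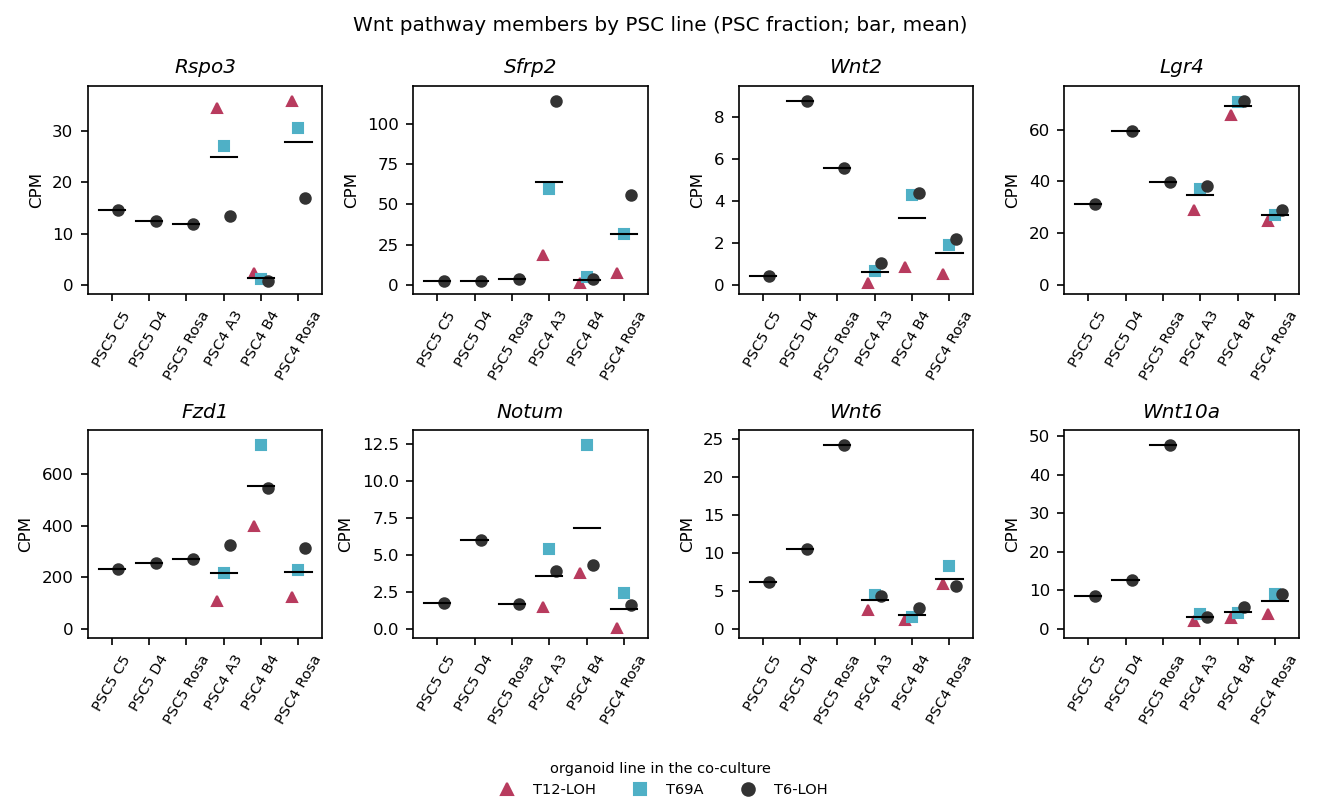
CPM of 8 members in the PSC fraction by PSC line (columns; the mean is a bar), with the organoid line of each co-culture shown by the marker. Rspo3 and Sfrp2 are low in line B4, Lgr4 and Fzd1 are high in it, and Wnt6 and Wnt10a are highest in the PSC5 Rosa library.

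The PSC5 lines, with 1 library each, were compared with the PSC4 lines in T6-LOH co-cultures. No member of 38 was called with edgeR (0.745% of all genes were, 0.42% higher and 0.325% lower; median over members -0.24, over all genes -0.02). At an unadjusted p under 0.05 there were 11 members, beside 2485 of all 14756 genes, and DESeq2 called 6 members among 1011 genes. Values of line C5 stood apart for several genes, among them Dkk2, Dkk3 and Fzd6. Dkk2 had 7.20, 38.1 and 19.6 CPM in C5, D4 and PSC5 Rosa. In A3, B4 and PSC4 Rosa with T6-LOH organoids it had 28.4, 33.8 and 22.9 CPM. Dkk3 had 0.493, 35.8 and 44.3 CPM in C5, D4 and PSC5 Rosa, against 96.0, 65.1 and 99.5 CPM in A3, B4 and PSC4 Rosa grown with the same organoid line. Fzd6 had 0.822, 4.72 and 2.53 CPM in C5, D4 and PSC5 Rosa, against 12.7, 20.1 and 15.1 CPM in A3, B4 and PSC4 Rosa, so that the parent lines did not overlap (log2 difference -2.59 ± 0.52, SE; adjusted p = 0.061). Sfrp2 was low in all PSC5 lines, at 2.33, 2.55 and 3.75 CPM, and the PSC4 line B4, at 3.57 CPM, fell between them.

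The PSC4 cells also differed by the organoid line they were grown with. The same 3 PSC4 lines were grown with each organoid line, so each PSC line is compared with itself. Anything else shared by the cultures of 1 organoid line cannot be told apart from the organoid line. With T12-LOH against T6-LOH organoids, 17 of 40 members were lower in the PSC4 cells and 1 was higher, beside 8.39% of all genes lower and 7.47% higher. The median log2 difference was -0.73 over the members tested and 0.00 over all genes. By role the lower members were 6 ligands, 6 receptors, 4 secreted inhibitors and 1 feedback gene. For 11 of the 18 members the call was kept in all fits that left out a library and in the other fits.

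Wnt4 changed most among the ligands. In the order A3, B4 and Rosa, it had 1.14, 2.20 and 0.631 CPM with T12-LOH organoids, against 33.5, 31.7 and 19.5 CPM with T6-LOH organoids, without overlap (log2 difference -4.49 ± 0.22, SE; adjusted p = 0.00019). Wnt5a had 19.2, 28.7 and 16.1 CPM with T12-LOH, against 112, 86.4 and 72.3 CPM with T6-LOH organoids (-2.08 ± 0.21; adjusted p = 0.0029). Wnt2 had 0.0950, 0.825 and 0.504 CPM with T12-LOH, against 1.027, 4.39 and 2.17 CPM with T6-LOH organoids (-2.49; adjusted p = 0.0016). All 3 were lower in every PSC4 line. Wnt10a, Wnt11 and Wnt2b were lower as well (-0.99, -1.65 and -2.94), and these calls were lost without the T6-LOH library of PSC4 Rosa (adjusted p = 0.051, 0.065 and 0.062). Wnt11 also lost its call without the T6-LOH library of A3 (0.071), and Wnt2b, under 1 CPM throughout, without that library (0.060) and without the T12-LOH libraries of PSC4 Rosa (0.071) and A3 (0.079).

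Of the 7 secreted inhibitors tested, 4 were lower with T12-LOH organoids and none was higher. Dkk2 had 3.99, 7.43 and 3.41 CPM in A3, B4 and Rosa with T12-LOH, against 28.4, 33.8 and 22.9 CPM with T6-LOH organoids (-2.56 ± 0.18, SE; adjusted p = 0.00046). Sfrp2 was lower in all 3 lines, with differences of -2.87 to -1.35 on the log2 scale of CPM plus 0.5 (edgeR -2.58; adjusted p = 0.0034), and Sfrp4 (-2.11) and Dkk3 (-0.92) were lower too (adjusted p = 0.0057 and 0.0034). Sfrp1 had 109.7, 217 and 34.1 CPM with T12-LOH, against 699, 322.5 and 498 CPM with T6-LOH organoids. All 3 lines were lower, but by unequal amounts, and the test was not passed (-2.19 ± 0.72, SE; adjusted p = 0.11). Notum (-1.27, adjusted p = 0.14) and Dkk1 (-0.70, adjusted p = 0.45) did not pass it either, and Dkk1 in B4 had 0.275 CPM with T12-LOH and 0.260 CPM with T6-LOH organoids. Among receptors, Fzd4 (-0.50), Fzd6 (-1.06) and Fzd7 (-0.62) were lower and were called in all fits tried. Fzd8 (-0.80), Fzd1 (-1.15) and Fzd2 (-0.63) were lower too. Their calls were lost without the T12-LOH library of A3, and those of Fzd1 and Fzd2 also without the T12-LOH library of PSC4 Rosa or the T6-LOH library of PSC4 Rosa or A3, and that of Fzd2 without the T6-LOH library of B4 (highest adjusted p 0.053, 0.10 and 0.16).

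Axin2 had 3.39, 6.56 and 5.59 CPM in A3, B4 and Rosa with T12-LOH, against 20.5, 13.7 and 26.4 CPM with T6-LOH organoids, without overlap (-1.91 ± 0.41, SE; adjusted p = 0.033). Its call was lost whichever of 5 libraries was left out, the exception being the T12-LOH library of B4, with adjusted p between 0.065 and 0.12, and it was also lost with no filter on low counts (0.076). Rspo3 went against the rest, with 34.6, 2.20 and 36.0 CPM with T12-LOH, against 13.4, 0.744 and 16.9 CPM with T6-LOH organoids. It was higher in all 3 lines, by 1.07 to 1.33 on the log2 scale of CPM plus 0.5 (edgeR 1.29 ± 0.13, SE; adjusted p = 0.0010).

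**Figure D4:**
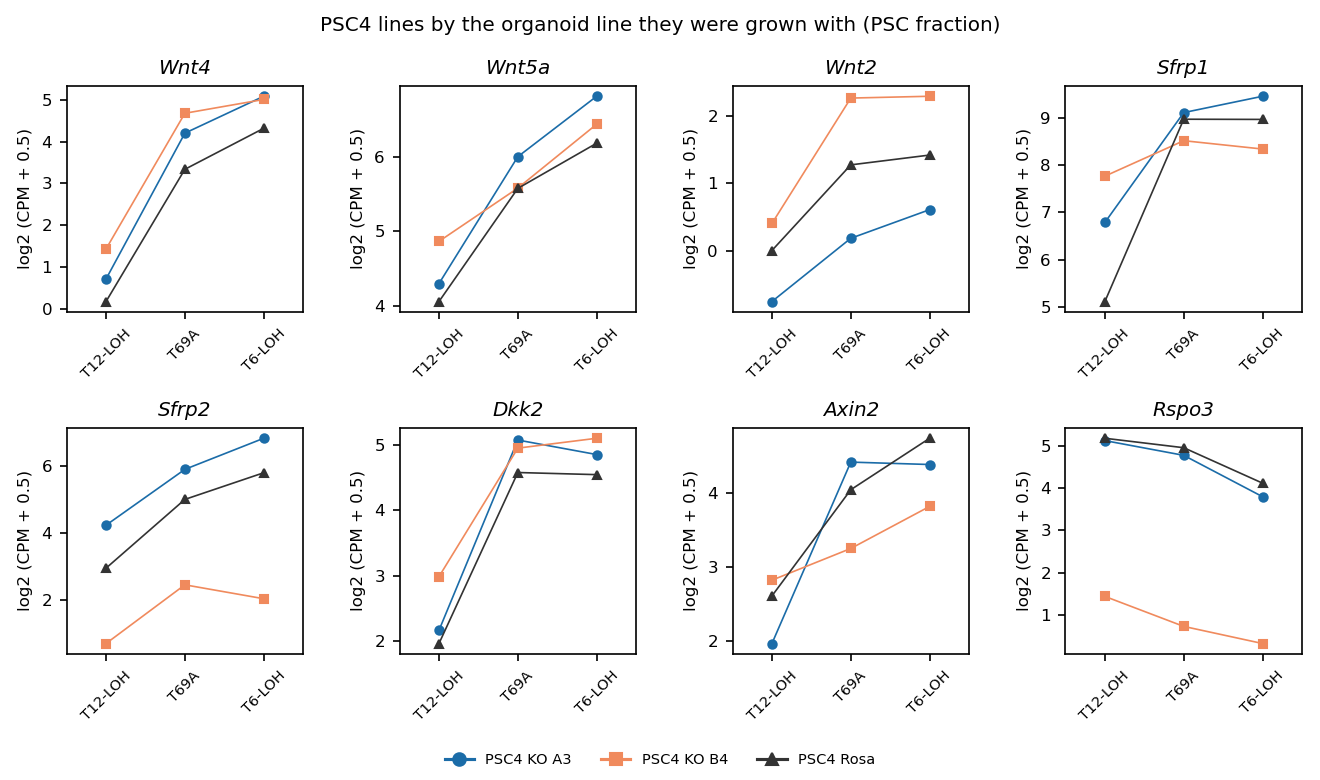
Log2 of CPM plus 0.5 of 8 members in the PSC4 lines A3, B4 and Rosa (lines), by the organoid line they were grown with. All but Rspo3 are lowest with T12-LOH organoids in all 3 PSC4 lines, and Rspo3 is highest with T12-LOH.

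With T69A against T6-LOH organoids, a comparison that shares the T6-LOH libraries, 2 members were higher and 1 was lower in the PSC4 cells, beside 3.65% of all genes called, 2.2% higher and 1.45% lower (median over members -0.08, over all genes -0.01). These were Rspo3 (0.88, adjusted p = 0.024), Lrp5 (0.29, adjusted p = 0.041) and Fzd6 (-1.03, adjusted p = 0.024). Each of these calls was lost whichever library was left out, with adjusted p up to 0.125, 0.163 and 0.119. Wnt4 was lower in all 3 lines but not called (-0.76, adjusted p = 0.053).

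The organoid side of the main comparison asks whether organoids differ with the Egfr genotype of the PSCs beside them. Of 27 members tested, 4 were higher and 3 lower with KO PSCs, where 9.16% of all 14750 genes were called, 3.82% higher and 5.34% lower. The median log2 difference was -0.14 over the members and -0.01 over all genes. All 7 calls came from the fit with co-culture as a block, and without it no member and no gene was called. Fibroblast and stellate markers in the organoid fraction summed to 1.30 to 6.14 CPM with KO PSCs, against 4.30 to 21.5 CPM with Rosa PSCs. The 6 immune markers summed to 11.0 to 19.9 CPM with KO PSCs, against 18.5 to 26.0 CPM with Rosa PSCs, with 1 of the 6 at a mean of 1 CPM or more in either group. The part of either list in these differences was not tested.

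Wnt7a had 20.9 to 52.4 CPM in organoids with KO PSCs (median 30.5), against 33.1, 47.5, 59.7 and 62.5 CPM with Rosa PSCs. It was below its own control in 7 of 7 libraries, by 0.25 to 0.78 on the log2 scale of CPM plus 0.5 (edgeR -0.50 ± 0.07, SE; adjusted p = 0.0039). Lgr4 had 71.2 to 144.6 CPM with KO PSCs (median 121), against 62.6, 100.1, 111 and 115 CPM with Rosa PSCs, and was above its control in 7 of 7 (0.28 ± 0.04; adjusted p = 0.0038). The calls of Wnt7a and Lgr4 were kept in all fits that left out 1 library. The 7 libraries came from co-cultures with 4 KO lines, A3 and B4 in more than 1 library each. No fit by PSC line was run for the organoids, so these calls do not rest on separate KO lines alone.

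Wnt4 (0.48, adjusted p = 0.016) and Apcdd1 (0.67, adjusted p = 0.014) were higher with KO PSCs in 7 of 7 libraries, and lost their calls without the PSC5 Rosa library (adjusted p = 0.088 and 0.061). Lgr6 was lower with KO PSCs in 7 of 7, at 5.03 to 14.0 CPM (median 11.0), against 10.2, 15.5, 16.7 and 38.7 CPM with Rosa PSCs, where the PSC5 Rosa co-culture was the highest (-0.95, adjusted p = 0.032). Its log2 difference without that library was -0.69 (adjusted p = 0.11), and the call was also lost without either T69A library, without the T12-LOH organoids with A3, or without those with C5 or D4 (adjusted p 0.058 to 0.0996). Fzd5 (0.18, adjusted p = 0.029) and Wnt7b (-0.17, adjusted p = 0.048) were called by a small margin, and both calls were lost without either T69A library, the T6-LOH organoids with PSC4 Rosa or A3, or any PSC5 co-culture, and that of Wnt7b also without the T12-LOH organoids with A3 (adjusted p up to 0.11 and 0.19). Axin2 (-0.57, adjusted p = 0.49), Lgr5 (-0.55, adjusted p = 0.22) and Notum (-0.56, adjusted p = 0.13) did not pass the test, Notum being below its control in 7 of 7.

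**Figure D5:**
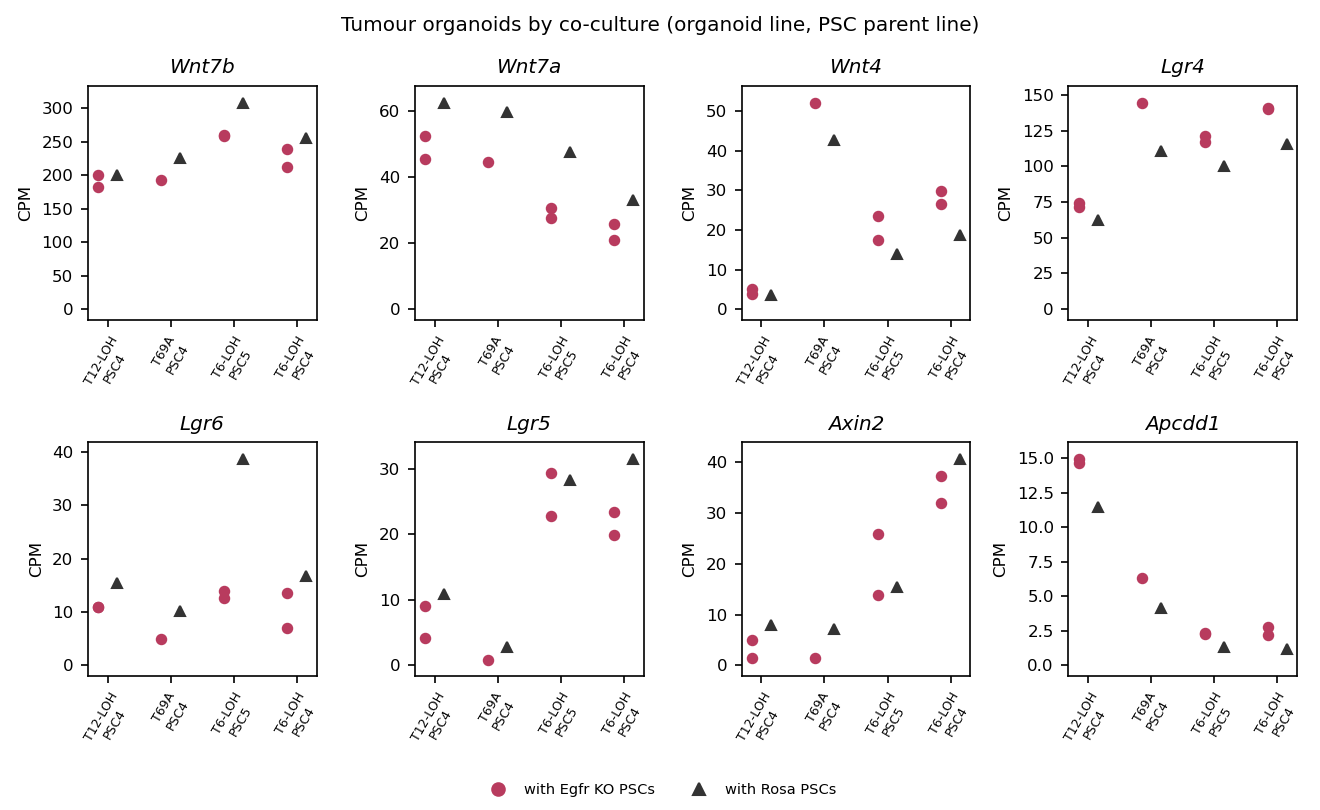
CPM of 8 members in each organoid library by co-culture (organoid line and PSC parent), with KO PSCs to the left of Rosa PSCs. Wnt7a and Lgr6 are lower and Lgr4 and Apcdd1 higher with KO PSCs in each co-culture, while Lgr5 and Axin2 are lower in T12-LOH and T69A than in T6-LOH organoids.

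The organoid lines themselves differed in most members. In T12-LOH against T6-LOH organoids grown with PSC4 lines, 11 of 27 members were higher and 13 lower, beside 62.1% of all genes called, 31.2% higher and 30.9% lower. In T69A against T6-LOH organoids, 8 were higher and 11 lower, beside 52.9% of all genes called, 26.3% higher and 26.6% lower. Both comparisons use the same 3 T6-LOH libraries. Medians over the members were -0.29 for T12-LOH and -0.07 for T69A, and those over all genes 0.01 in both.

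Axin2 and Lgr5 were low in T12-LOH and T69A organoids, while the other feedback genes took different directions. In the order of PSC lines A3, B4 and Rosa, Axin2 had 4.92, 1.37 and 8.03 CPM in T12-LOH, and 37.2, 32.01 and 40.7 CPM in T6-LOH organoids, and T69A organoids with B4 and Rosa had 1.45 and 7.22 CPM. The log2 differences were -3.002 ± 0.62 for T12-LOH (adjusted p = 0.0053) and -3.30 ± 0.77 for T69A (adjusted p = 0.011), and the second call was lost without the T69A library with B4 (-2.56, adjusted p = 0.076). Lgr5 had 9.05, 4.15 and 10.9 CPM in T12-LOH, 0.767 and 2.89 CPM in T69A, and 19.9, 23.4 and 31.6 CPM in T6-LOH organoids, without overlap between lines. Its log2 differences were -1.65 for T12-LOH and -3.93 for T69A (adjusted p = 0.0030 and 0.00029). Apcdd1 went the other way, with 15.0, 14.6 and 11.5 CPM in T12-LOH, 6.31 and 4.15 CPM in T69A, and 2.81, 2.18 and 1.172 CPM in T6-LOH organoids (2.77 and 1.46; adjusted p = 3.4e-08 and 4.2e-05). Rnf43 was higher as well in T12-LOH, with 74.9, 65.0 and 76.9 CPM, and in T69A, with 59.2 and 89.2 CPM, against 54.95, 50.7 and 54.0 CPM in T6-LOH organoids (0.42 in both; adjusted p = 0.0051 and 0.014). The T69A call of Rnf43 was lost without the T69A or the T6-LOH library with PSC4 Rosa (adjusted p up to 0.26, lowest log2 difference 0.15). Znrf3 was lower in T12-LOH organoids (-0.56, adjusted p = 0.00028) and not called in T69A (-0.21, adjusted p = 0.13). Notum was lower in T12-LOH (-1.10, adjusted p = 0.0060) and not called in T69A (0.27, adjusted p = 0.51).

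Ligands differed between the organoid lines in both directions. Wnt4 had 3.94, 5.003 and 3.46 CPM in T12-LOH, 52.2 and 42.8 CPM in T69A, and 26.6, 29.8 and 18.8 CPM in T6-LOH organoids, so the 3 lines did not overlap (-2.61 and 1.00; adjusted p = 6.8e-09 and 3.6e-05). T12-LOH was thus the line with the lowest Wnt4 both in the organoids and in the PSC4 cells grown with them. Wnt7a was higher in T12-LOH (1.00, adjusted p = 1.5e-06) and in T69A organoids (0.87, adjusted p = 2.1e-05). Wnt7b, the main organoid ligand, was slightly lower in T12-LOH, with 183, 200.4 and 199.8 CPM, and in T69A, with 192.9 and 225.7 CPM, against 212.6, 239.6 and 256.1 CPM in T6-LOH organoids (-0.29 and -0.22; adjusted p = 0.0013 and 0.019). Its T69A call was lost without the T69A or the T6-LOH library with B4 (adjusted p up to 0.18). Wnt10a had 3.53, 3.98 and 3.24 CPM in T12-LOH, 7.67 and 10.7 CPM in T69A, and 0.755, 1.83 and 0.961 CPM in T6-LOH organoids (1.58 and 2.92; adjusted p = 0.00069 and 1.5e-05). Wnt5a reached only 0.667, 0.727 and 0.648 CPM in T12-LOH and at most 0.150 CPM in T6-LOH organoids, and fibroblast and stellate markers in T12-LOH organoids stood at 0.00933% to 0.066% of their PSC level. Porcn was higher in T12-LOH (0.69, adjusted p = 0.0065) and in T69A organoids (1.84, adjusted p = 4.9e-05), where it had 91.0 CPM with B4 and 137 CPM with Rosa PSCs.

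Receptors separated the lines in both directions. Fzd7 had 11.1, 12.2 and 13.7 CPM in T12-LOH, 51.6 and 52.2 CPM in T69A, and 48.3, 50.01 and 45.9 CPM in T6-LOH organoids (-1.98 for T12-LOH, adjusted p = 2.1e-09; 0.07 for T69A, adjusted p = 0.53). Fzd1 was lower in both lines (-1.32 for T12-LOH and -1.31 for T69A, adjusted p = 1.2e-07 and 1.1e-06), as was Fzd6 (-1.12 and -1.32, adjusted p = 4.0e-08 and 9.7e-08). Fzd3 was higher in both (3.0 and 1.40, adjusted p = 7.3e-07 and 0.0018). Lgr4 was lower in T12-LOH organoids (-0.94, adjusted p = 1.4e-08), with 71.2, 74.6 and 62.6 CPM, against 140.6, 140.2 and 115 CPM in T6-LOH organoids. T6-LOH organoids grown with PSC5 lines were set against those grown with PSC4 lines, and 0 of 27 members were called with edgeR (0.502% of all genes, 0.231% higher and 0.271% lower; median over members -0.03, over all genes 0.00). At an unadjusted p under 0.05 there were 9, beside 2308 of all 14750 genes. DESeq2 called 4 members among 456 genes, and edgeR with no filter on low counts called 2 among 242.

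A list of 71 other Wnt pathway genes was counted in the same fits. In the PSC fraction against the organoids 29 of 63 were higher and 18 lower, beside 36.3% of all genes higher and 37.6% lower. Those with the smallest p were Ccn4 and Lef1, both β-catenin targets, and Prickle2, Pygo1, Tcf7l1 and Amer1, all higher in PSCs. Tcf7l1 and Amer1 were higher by 4.36 and 2.01, and Ccn4, Lef1, Prickle2 and Pygo1 had at most 6, 2, 3 and 1 reads in any organoid library. None of 60 was called between KO and Rosa PSCs, beside 0.0949% of all genes. Those at an unadjusted p under 0.05 numbered 13, beside 1992 of all 14756 genes. In organoids with KO PSCs, where 5.34% of all genes were lower, 4 of 55 were lower: Dvl1 (-0.40), Cd44 (-0.32), Csnk1e (-0.23) and Ephb2 (-0.21). Between lines A3 and B4, 16 of 62 were higher and 24 lower in A3, beside 23.9% of all genes higher and 21.3% lower. They were led by Vangl2 (-2.12), Pygo1 (-2.15), Prickle1 (-2.46), Ctnnb1 (-0.72), Frzb (-3.01) and Dvl1 (0.74). Against PSC4 Rosa, 4 were higher and 3 lower in A3, beside 3.15% of all genes higher and 3.83% lower. In B4 23 were higher and 13 lower, beside 22.1% of all genes higher and 24.2% lower.

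In PSC4 cells with T12-LOH against T6-LOH organoids, 4 of 62 other pathway genes were higher and 18 lower. Over all genes 7.47% were higher and 8.39% lower. Fosl1 (0.90) and Gpc4 (0.69) were higher, and Tcf7l2 (-0.69), Cd44 (-0.59), Tpbg (-0.68) and Ctnnbip1 (-0.43) were lower. With T69A, 1 was higher, Fosl1 (0.39), beside 2.2% of all genes higher and 1.45% lower. In T12-LOH organoids 19 of 55 were higher and 21 lower, beside 31.2% of all genes higher and 30.9% lower. They were led by Prickle1 (-5.27), Celsr1 (-1.53), Kremen1 (-1.24), Tpbg (1.78), Ryk (-0.72) and Tcf7l2 (-0.70). In T69A organoids 15 were higher and 19 lower, beside 26.3% of all genes higher and 26.6% lower. The receptor gene Ror2 had no reads in either T69A library, against at least 272 in each T6-LOH library, Vangl2 had at most 3 reads in T69A, against at least 214.5 in T6-LOH, and Prickle1 (-3.08), Axin1 (-0.66), Apc2 (4.07) and Csnk1e (-0.78) followed.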

How the data were processed

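RNA-seq libraries of sorted PSCs and organoids were quantified by the authors. Per the submitters' processing notes they used Salmon 1.9.0 and the build GRCm39. The estimated counts and the TPM values per transcript were used as deposited in the authors' quantification files, 1 per library. Transcripts were joined to gene names by identifier with the GENCODE M21 annotation, which matched 115973 of 117135 transcripts, and the unmatched ones held 0.364% to 0.443% of the estimated reads. Estimated counts were summed per gene and rounded, and TPM were summed per gene.

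Depth was 21823084 to 34828131 reads per library. Levels of 1 gene across libraries are CPM on TMM library sizes over all 23 libraries, and levels of different genes are compared in TPM. Own-control differences use log2 of CPM plus 0.5. KO libraries of the same co-culture share 1 Rosa control, so counts of libraries above or below it are not independent. The 13 comparisons used edgeR 4.0.16 in R 4.3.3 (TMM, filterByExpr, robust quasi-likelihood fit), with Benjamini-Hochberg adjustment over all genes tested and a threshold of 0.05. The fits had culture (fraction comparison), co-culture (KO against Rosa, organoid lines and PSC parents) or PSC line and organoid line (PSC4 comparisons) as terms. The scripts were tested on simulated data. Alternatives were DESeq2 1.42.0, RLE scaling, no filter on low counts, and each library or culture left out. Some comparisons were also fitted with no block or with the T69A co-culture left out. Sums per PSC line and limma 3.58.1 with PSC line as a random effect were used only for KO against Rosa PSCs. For A3 against B4 a fit over their 6 libraries was added. All members may be named, and of the other pathway genes up to 6 called ones of smallest p per comparison. Members, lists and tests were chosen with earlier results of these data known.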

Additional observations from a re-analysis of the deposited data

Results flagged for a closer look

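In groups of 4 to 8 libraries, 8 of 111 member and group combinations held a library far from the rest. For draws from 1 normal distribution chance flags about 1 in 20 groups. These groups mix organoid and PSC lines, so that rate need not hold here. In Rosa PSCs the PSC5 Rosa library had 24.2 CPM of Wnt6, with the next library at 8.22 CPM, and 47.8 CPM of Wnt10a, with the next at 8.93 CPM. The same library had the lowest Fzd3 at 16.2 CPM, with the next at 17.4 CPM. In KO PSCs the A3 library with T69A organoids had 4.38 CPM of Dkk1 (next 1.74 CPM), and the B4 library with T69A had 12.4 CPM of Notum (next 6.04 CPM). The D4 library had 50.3 CPM of Axin2, where the next KO library had 21.0 CPM. Among organoids with KO PSCs, the T69A library with B4 had 18.7 CPM of Fzd4 (next 11.9 CPM), and among organoids with Rosa PSCs the T69A library had 137 CPM of Porcn (next 47.3 CPM).

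Notum was flagged by a rule that asked for every library to lie on 1 side in each fraction, in opposite directions. It did not pass the edgeR test in either fraction. Against its own Rosa control it was above in 8 of 8 KO PSC libraries, with a median difference of 1.39 on the log2 scale of CPM plus 0.5 (0.055 to 2.87). It was below in 7 of 7 organoid libraries, with a median of -0.50 (-0.848 to -0.015). KO libraries of the same co-culture share a Rosa control, so these counts are not independent. This difference between the fractions was not tested.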

How the results depend on the processing

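Among the calls of single members, 1470 were kept and 187 lost over the alternatives, and none changed direction. DESeq2 called 5 members between KO and Rosa PSCs, 6 between PSC5 and PSC4 lines, 5 in PSC4 cells with T69A against T6-LOH, where edgeR called 3, and 4 in T6-LOH organoids by PSC parent, where no filter gave 2. For organoids with KO against Rosa PSCs, 7 calls became 0 without the co-culture block and 4 without the T69A co-culture. Leaving out 1 library gave 2 to 8 calls there, the fewest without the PSC5 Rosa co-culture. It gave 0 to 3 for A3 against PSC4 Rosa, 15 to 24 for B4 against PSC4 Rosa, 14 to 20 for A3 against B4, 0 to 2 for PSC4 cells with T69A, 13 to 21 with T12-LOH, and 0 to 1 for T6-LOH organoids by PSC parent. It gave 36 to 37 calls in the fraction comparison, 23 to 24 in T12-LOH and 16 to 19 in T69A organoids, and 0 to 0 for KO against Rosa PSCs and for PSC5 against PSC4 lines. Over all genes, DESeq2 called 589 for KO against Rosa PSCs, where edgeR called 14. It called 1011 between PSC5 and PSC4 lines, 844 in PSC4 cells with T69A and 456 in T6-LOH organoids by PSC parent. There edgeR called 110, 560 and 74. The cause of these differences between the tools was not tested. The interaction could not be fitted without the PSC5 Rosa library. Pairs and co-cultures were set by the organoid and PSC lines in the labels, not by library numbers, which no groups share. Fits with 1 library left out rest on few residual degrees of freedom, and 8 members had too few reads to be tested between the fractions.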
